A study of Mus musculus with 2 samples.

Results

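The data concern 37 interferon-stimulated genes (ISGs) in immune cells sorted from mouse pancreatic islets. The genes were chosen by symbol, and 35 of the 37 had a row among the 32285 genes of the feature table; Mx1 and Mx2 were not analysed here. Islets of 6 to 8 male wild-type C57BL/6J mice were pooled, live CD45+ cells negative for the epithelial protein Epcam were sorted, and the cells were tagged with barcoded antibodies to CD9 and CD206 before single-cell sequencing. This gave 1 sample read as 2 libraries, 1 of mRNA and 1 of antibody tags, with no treatment, second genotype or replicate. Mice were therefore not separated, no test across samples was possible, and every interval below is an exact 95% interval that covers counting error only. Most values describe macrophages, defined as cells with at least 5000 RNA UMIs (unique molecular identifiers, counted molecules) and at least 2000 CPM (UMIs per 1000000 RNA UMIs) of the complement genes C1qa, C1qb and C1qc together.

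Type I interferons such as interferon beta bind a receptor made of Ifnar1 and Ifnar2. The receptor's kinases Jak1 and Tyk2 then activate transcription factors, Stat2 with its partner Irf9 among them, that bind a DNA element called the interferon-stimulated response element. The genes switched on in this way include binders of viral RNA (Ifit family), sensors of viral RNA (Ifih1, Ddx58, Dhx58), the ubiquitin-like modifier Isg15 with its ligase Herc6 and its protease Usp18, activators or relatives of the RNase L pathway (Oas3, Oasl1, Oasl2) and guanylate-binding proteins (Gbp2, Gbp3, Gbp5, Gbp7), many of which also respond to interferon gamma. Macrophages are the main resident immune cell of islets.

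Promoters of 6 of these genes are shown because the genes span the range of cell-to-cell spread described below. All 6 hold the motif marked here, which some of the other ISGs also hold and others lack. The windows are the 200 bases before the annotated start, 5′ to 3′ in the direction of transcription, from RefSeq (GRCm38.p6, the assembly called mm10 by genome browsers). They lie at chr19:34640689-34640888, plus strand (Ifit1), chr19:34583329-34583528, plus strand (Ifit3), chr19:34607757-34607956, plus strand (Ifit3b), chr12:26456453-26456652, minus strand (Rsad2), chr4:156200819-156201018, minus strand (Isg15) and chr8:71537473-71537672, minus strand (Bst2). Capitals mark a core of the response element, GAAA followed by any 2 bases and again GAAA, on either strand, and overlapping matches run together.
Ifit1: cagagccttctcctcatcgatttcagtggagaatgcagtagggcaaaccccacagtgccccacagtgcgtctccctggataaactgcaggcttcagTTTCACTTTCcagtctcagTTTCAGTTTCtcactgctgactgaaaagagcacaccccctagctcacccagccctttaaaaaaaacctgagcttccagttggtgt
Ifit3: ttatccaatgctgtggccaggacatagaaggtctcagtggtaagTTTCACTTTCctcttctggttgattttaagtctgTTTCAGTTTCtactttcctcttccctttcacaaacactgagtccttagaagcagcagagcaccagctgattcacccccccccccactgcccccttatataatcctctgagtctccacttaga
Ifit3b: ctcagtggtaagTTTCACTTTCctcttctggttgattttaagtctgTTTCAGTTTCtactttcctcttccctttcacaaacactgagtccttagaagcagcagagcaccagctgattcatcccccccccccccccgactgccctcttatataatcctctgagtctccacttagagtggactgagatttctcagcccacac
Rsad2: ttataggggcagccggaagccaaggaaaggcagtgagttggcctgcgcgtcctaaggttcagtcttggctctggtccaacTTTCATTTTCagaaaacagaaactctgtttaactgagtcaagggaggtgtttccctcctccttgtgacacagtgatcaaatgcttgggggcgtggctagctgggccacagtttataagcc
Isg15: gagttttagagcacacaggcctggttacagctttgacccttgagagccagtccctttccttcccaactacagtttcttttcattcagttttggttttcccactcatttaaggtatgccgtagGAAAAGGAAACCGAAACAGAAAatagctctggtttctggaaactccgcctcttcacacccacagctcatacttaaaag
Bst2: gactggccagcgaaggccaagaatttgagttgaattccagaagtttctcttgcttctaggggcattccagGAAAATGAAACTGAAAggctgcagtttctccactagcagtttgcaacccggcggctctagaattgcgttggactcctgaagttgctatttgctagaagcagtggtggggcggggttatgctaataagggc

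The Ifit3 and Ifit3b windows shared an identical run of 119 bases that held both matches. Over windows of 250 bases before to 50 after the start, 29 of the 35 ISGs had a RefSeq promoter and 18 of the 29 (62.1%) held the motif, against 3.99% of 27025 genes. At least 2 matches were found in 6 ISGs, against 0.266% of genes. The motif was found in 6 of 9 ISGs whose RNA was confined to few macrophages, in 11 of 19 of intermediate spread and in 1 of 1 broad gene with a promoter, Bst2. The confined ISGs without it were Ifit2, Cmpk2 and Ifi44. A match is a string of letters and not a measured binding site. In the same assembly the 4 Ifit genes lie side by side on chromosome 19 (chr19:34550550-34650009), the 4 guanylate-binding protein genes on chromosome 3 (chr3:142496934-142638008) and Rsad2 next to Cmpk2 on chromosome 12 (chr12:26442743-26479837).

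The matrix held 2237 cells with a median of 19352 RNA UMIs (quartiles 13191 and 24852), and both libraries were read from the same barcodes. Of these, 1708 (76.4%) were macrophages by the gate, with 5022 to 127703 RNA UMIs, a median of 20924 and 37379783 in all. All 12 macrophage markers on the list, 9 of them not used by the gate, were higher in these cells than in each of the 4 other immune classes described below. Adgre1 (F4/80) stood at 358 CPM and Csf1r was detected in 98.1% of them, while Mertk was detected in 12.7%. Ptprc, which encodes CD45, was detected in 98.5%, and the T cell gene Cd3e in 0.644%. The gate cuts a continuous level, and 41 cells lay between 1500 and 2500 CPM of the C1q genes. The summed ISGs stood at 4961 CPM in the 25 of them just inside and at 5515 CPM in the 16 just outside.

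Some ISGs were present in nearly every macrophage and others in a minority of cells. The measure of spread was the share of macrophages with at least 1 UMI, divided by the share that the same UMIs would reach if spread over the cells in proportion to their RNA totals. A ratio of 0.8 or more was called broad and 0.5 or less confined. By this measure 4 ISGs were broad, 9 were confined and 22 lay between, with a median of 0.62. Over all 9956 genes with at least 100 UMIs the median was 0.90, 78.5% were broad and 2.98% were confined.

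The 4 broad ISGs were Bst2, Ifi204, Parp14 and Dhx58. Bst2 (tetherin), which holds budding virus at the cell surface, had 530 CPM (523 to 538) and a UMI in 98.8% of macrophages (98.1 to 99.2%), with a ratio of 0.99. Ifi204, a DNA-binding protein of the PYHIN family, had 398 CPM and reached 91.1% of cells, with a ratio of 0.92. The ADP-ribosyltransferase Parp14 reached 83.7% of cells with a ratio of 0.84. Dhx58 (LGP2), a relative of the RNA sensors, lay just inside the limit at 0.80 although only 41.0% of cells had a UMI, because its 1295 UMIs would reach 51.1% of cells if spread evenly. Trim30a at 0.79 and Oasl1 at 0.78 lay just outside.

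The 9 confined ISGs were Ifit3b (0.31), Cmpk2 (0.33), Gbp5 (0.38), Ifit3 (0.40), Ifit1 (0.41), Ifi206 (0.41), Ifi44 (0.42), Ifit2 (0.44) and Ifi213 (0.45). All 4 Ifit genes were thus among them, together with Cmpk2, a mitochondrial nucleotide kinase next to Rsad2 in the genome. Ifit1 had 287 CPM (282 to 293), a UMI in 40.3% of macrophages (37.9 to 42.7%), a median of 0 UMIs per cell, a 90th percentile of 22 and a highest cell of 127. Its 10741 UMIs would have reached 98.7% of cells if spread evenly, and 96 cells held 50% of them. Ifit3b, with 3184 UMIs, was found in 25.1% of macrophages, and 59 cells held 50% of its UMIs. No single macrophage decided these values, since the richest cell held 1.18% of Ifit1 and 1.66% of Ifit3b UMIs. Usp18 at 0.52 and Gbp7 at 0.52 lay just outside the limit.

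Between these ends stood genes that many macrophages carried at a low level and some at a very high level. Rsad2 (viperin), an antiviral radical enzyme, was found in 61.5% of macrophages, with a median of 1 UMI, a 90th percentile of 85 and a highest cell of 436 (1112 CPM over all). Isg15 was found in 70.1% (574 CPM), Ifih1 (MDA5) in 68.9% (529 CPM) and Oasl1, which restrains translation of Irf7, in 78.3% (1118 CPM). Their ratios were 0.62, 0.70, 0.69 and 0.78. The transcription factors differed, with Stat2 at 0.76 and Irf7, which amplifies interferon production, at 0.59. Among the guanylate-binding proteins the ratio ran from 0.38 for Gbp5 through 0.52 for Gbp7 and 0.56 for Gbp2 to 0.77 for Gbp3.

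**Figure D1:**
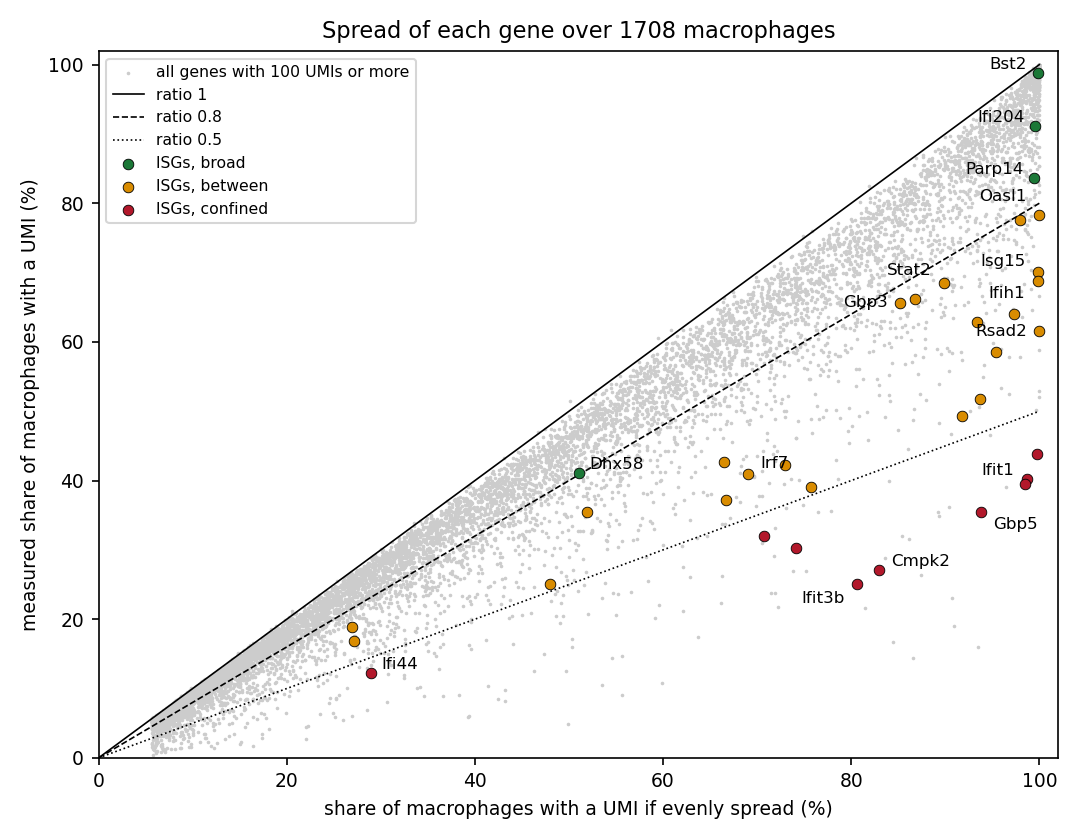
Measured share of macrophages with a UMI (y axis, %) against the share expected if the gene's UMIs were spread over the 1708 cells in proportion to their RNA totals (x axis, %). Grey points are 9956 genes and coloured points the 35 ISGs, with lines at ratios of 1, 0.8 and 0.5. Bst2, Ifi204 and Parp14 sit near the upper line, and the 9 confined ISGs lie below the ratio of 0.5.

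Free RNA in the suspension can place a UMI in a cell that does not make the transcript, so the same shares were read in 43 endocrine-like cells left in the sort. Their median depth was similar (21706 RNA UMIs), but they held 2059177 RNA UMIs in all, so some were far deeper. Before thinning, a UMI was found in 30.2% of the endocrine-like cells for Bst2, 25.6% for Ifit1, 39.5% for Rsad2 and 2.33% for Isg15. With every cell thinned to 5000 UMIs the shares in macrophages and in endocrine-like cells were 85.2% and 5.33% for Bst2, 29.1% and 6.55% for Ifit1, 45.0% and 9.85% for Rsad2 and 50.8% and 0.083% for Isg15. These 4 genes thus stood above this level in macrophages as a whole, as did 33 of the 35 ISGs by the thinned share. The 2 exceptions were Isg20, at 5.71% in macrophages and 20.7% in endocrine-like cells, and Ddx58, at 20.8% and 23.3%.

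Macrophages differed widely in the sum of the 35 ISGs. Over all macrophages the sum was 300942 UMIs, or 8051 CPM (8022 to 8080), which is 0.805% of their RNA. Per cell it ran from 0 to 68289 CPM, with a 10th percentile of 946, quartiles of 1609 and 9435, a median of 3428 and a 90th percentile of 22193. The upper quartile therefore lay far above the median, and the highest cell gave 6.83% of its RNA to these genes. At least 1% of RNA was reached by 407 macrophages (23.8%), and 188 (11.0%) stayed under 0.1%. The richest 10% of cells held 44.8% of the UMIs, and 205 cells held 50%.

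The number of different ISGs per macrophage also covered the whole scale. The median cell had UMIs of 16 of the 35, with a 10th percentile of 7, a 90th percentile of 31 and a highest of 35. Of all macrophages, 480 (28.1%) had no UMI of any confined ISG. The median expected number fell from 16 to 7.89 when cells were thinned to 5000 UMIs, with a 10th percentile of 3.15 and a 90th of 24.2.

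**Figure D2:**
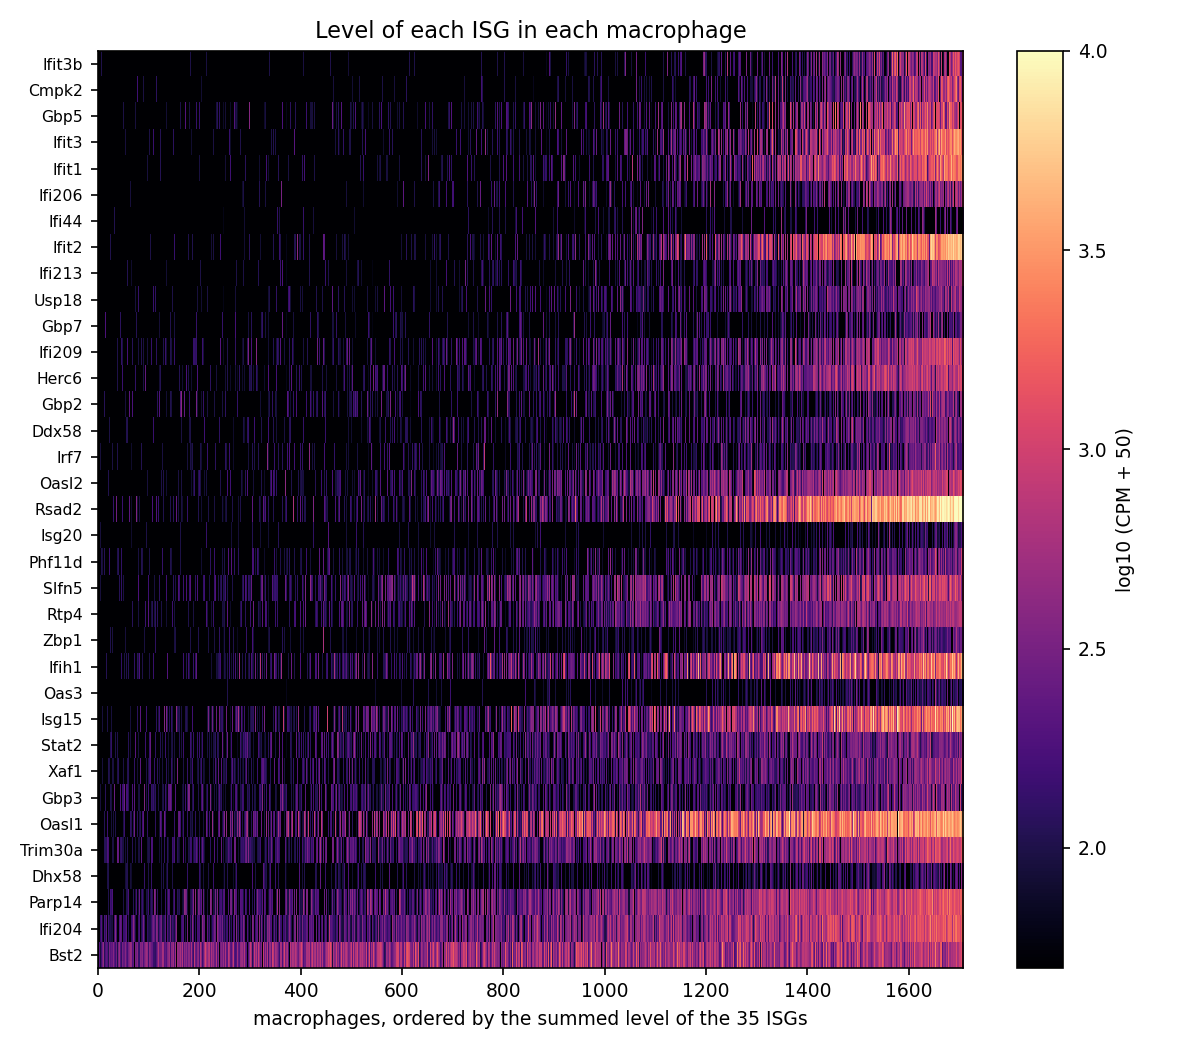
Level of each ISG (rows, ordered by spread ratio from confined at the top to broad at the bottom) in each of the 1708 macrophages (columns, ordered by the summed level), coloured by log10 of CPM with 50 added. Ifit genes, Cmpk2 and Gbp5 are filled mainly at the right, whereas Bst2 is filled across the whole width.

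The ISGs went up and down together from cell to cell. Spearman's correlation of CPM between pairs of ISGs over the 1708 macrophages had a median of 0.47 over 595 pairs. It was highest for Ifit2 with Ifit3 (0.75) and for Ifit1 with Rsad2 (0.73), and lowest for Gbp3 with Bst2 (0.079). These cells share 1 library and the correlations are a description, since low counts pull them towards 0.

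To describe this in UMIs, macrophages were ranked for each ISG by the sum of the other ISGs, within deciles of RNA total, and the highest and lowest tercile of 570 cells were compared. Of the 35 ISGs, 34 were at least 1.5-fold higher in the cells rich in the others, where 6.68% of 9136 genes were called higher and 13.5% lower between terciles of the full sum. The median ratio was 17.5, 20 ISGs were over 10-fold and 5 were over 100-fold. The exception was Bst2 at 1.496-fold (1.45 to 1.55), just under the limit, with 646 against 432 CPM. Ifit3b stood at 219-fold (130 to 401), with 3051 UMIs against 14, and Ifit1 at 190-fold (145 to 254), with 9994 against 53. Rsad2 was 83.7-fold (3079 against 36.8 CPM), Isg15 19.5-fold (1396 against 71.4 CPM) and Oasl1 7.17-fold (2211 against 308 CPM).

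The 5 ISGs over 100-fold, the 4 Ifit genes and Cmpk2, were all confined, and Ifi44 at 19.9-fold was the lowest of the confined genes. Of the broad genes Ifi204 was 6.14-fold, Parp14 6.82-fold and Dhx58 4.02-fold, while Gbp3, of intermediate spread, was 2.79-fold. In the macrophages poor in the other ISGs, 4 of the 9 confined genes had a share of cells at or below that in endocrine-like cells. These shares were read without thinning. Ifit1 was found in 6.67% of these macrophages (4.23 CPM) and in 25.6% of endocrine-like cells (13.6 CPM). Cmpk2 was found in 2.81% and 32.6% (1.52 and 17.5 CPM), Ifit3b in 2.46% and 4.65% and Ifit2 in 11.1% and 11.6%. Ifit2 and Ifit3b were not lower in CPM (6.94 against 2.91 and 1.12 against 0.971). The lower end of these 4 ratios rests on few UMIs. The parts of free RNA and of the endocrine-like cells' own transcripts in these values were not tested. The other 5 lay above, among them Gbp5 (16.3% against 2.33%) and Ifit3 (8.60% against 4.65%).

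Across deciles of the full sum the genes differed in where they reached high levels. Ifit1 stood at 2.08 CPM in decile 1, 19.5 in decile 5, 142 in decile 7 and 1424 in decile 10. Oasl1 had already reached 576 CPM in decile 5 and ended at 3227 CPM in decile 10. Bst2 went from 273 CPM in decile 1 to 708 in decile 10, with a UMI in at least 96.1% of cells throughout. Gbp3 stayed between 45.8 and 88.4 CPM up to decile 7 and reached 263 in decile 10.

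**Figure D3:**
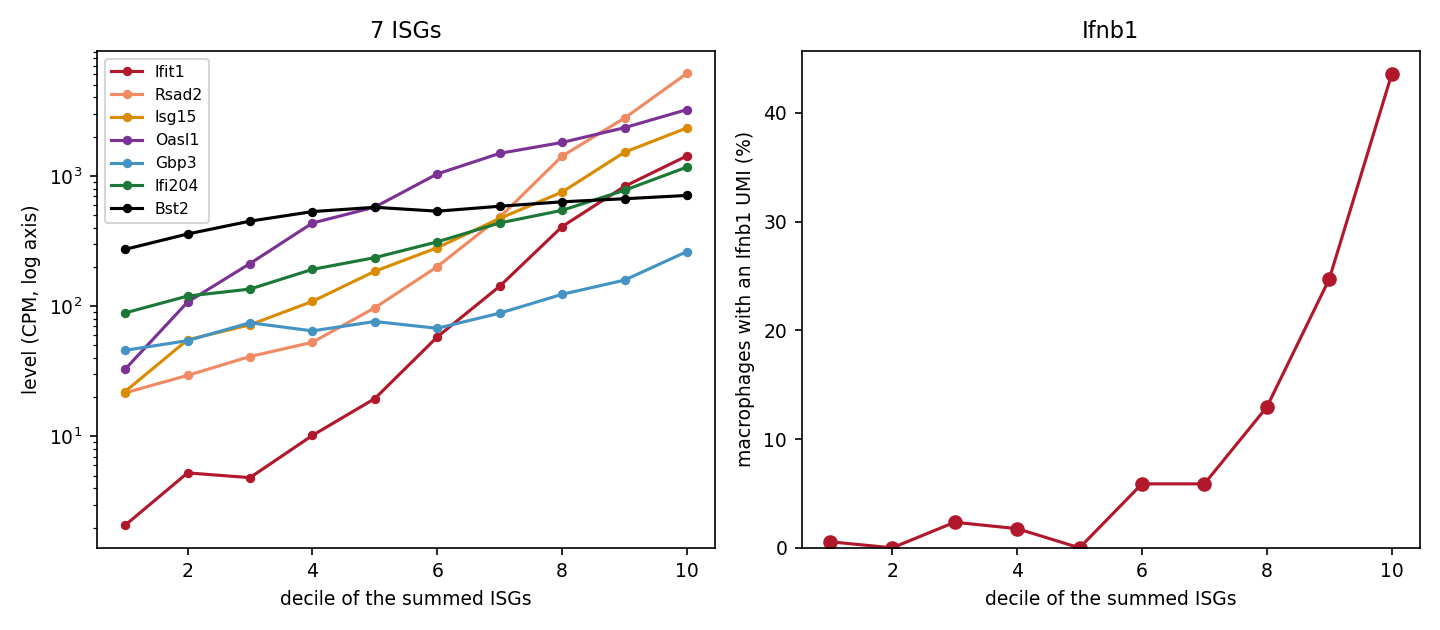
Left, level (CPM, log axis) of 7 ISGs in macrophages by decile of the summed ISGs within deciles of RNA total. Right, share of macrophages (%) with an Ifnb1 UMI in the same deciles. Ifit1 goes from 2.08 to 1424 CPM and Bst2 from 273 to 708 CPM, and the Ifnb1 share reaches 43.5% in decile 10.

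Other genes of the pathway were read in the same upper and lower terciles of the summed ISGs (18788 and 1331 CPM, with median RNA totals of 20936.5 and 20908). These lists were not chosen independently of earlier results on these cells, and their counts are descriptions. Between these terciles 6.68% of 9136 genes were called higher and 13.5% lower. Of 47 further antiviral targets, 44 were at least 1.5-fold higher and none lower, with a median of 4.79-fold. Examples were the PYHIN gene Ifi211 (13.7-fold), Slfn1 of the schlafen family (43.6-fold), the nuclear body gene Pml (15.3-fold) and Ifi205 (13.4-fold). Of 25 genes best known as interferon gamma targets, 17 were higher and none lower (median 3.01). Cxcl10, a chemokine for activated T cells, had 53230 UMIs against 972 (55.1-fold, 51.7 to 58.7), the related chemokine Cxcl9 was 38.4-fold and the GTPase gene Ifi47 28.1-fold higher. A second GTPase gene, Iigp1, had 232 UMIs against 3 (77.8-fold, 26.3 to 380). Of the class I antigen-presenting genes, B2m stood at 1.12-fold and H2-K1 at 1.14-fold.

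Among 14 signalling genes and negative regulators, 7 were higher and none lower. For this and the next counts, 6.68% of all 9136 genes were called higher and 13.5% lower. Irf1 was 5.31-fold (5.01 to 5.63) higher, Irf8 2.41-fold and Socs1, which inhibits the receptor kinases, 9.83-fold. Irf9 was 1.96-fold higher, whereas the kinases Jak1 (0.90) and Tyk2 (0.97) were close to equal. None of 5 receptor genes passed 1.5-fold either way, with Ifnar1 at 0.76 (0.70 to 0.81) and Ifnar2 at 0.81 (0.77 to 0.84). Of 17 genes that lead to interferon production, 5 were higher, namely Tlr3 (8.79-fold), Aim2 (2.04-fold), Tlr7 (1.84-fold), Myd88 (1.64-fold) and Tlr9 (1.60-fold). Tbk1 (1.18), Mavs (0.73), Irf3 (0.83) and Tmem173, which encodes STING (0.94), were not. All genes tested had a median log2 ratio of -0.22 here.

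Genes outside these lists with the largest differences included several relatives of the ISGs. The GTPase-like gene Gm4951 was 349-fold higher (694 UMIs against 2, 96.2 to 2887), Ifit1bl1 226-fold (62.1 to 1870) and the PYHIN genes Ifi208 and Ifi214 91.3-fold and 28.3-fold. The chemokine Ccl5 stood at 2561 against 112 CPM (22.9-fold), the helicase-like Ddx60 was 19.9-fold higher and Tnfsf10, the death ligand TRAIL, 35.2-fold. The other 5 on the higher side were Trim30c, Fap, Olfr56, Tgtp2 and Heatr9, at 64.6-fold, 37.5-fold, 52.7-fold, 46.4-fold and 24.9-fold. On the lower side the 12 leading genes had 32.8 to 65.0% of their UMIs in 1 cell each. They included Cntnap2, Phactr1 and Meg3, which also lead the endocrine-like cluster, and hormone genes stood at 2831 CPM in the upper and 3152 CPM in the lower tercile. The part of endocrine RNA in these lower genes was not tested.

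Other properties of the cells in the same terciles lay closer together. The median share of mitochondrial UMIs was 1.37% in each. C1q genes stood at 6478 CPM in the upper and 7025 CPM in the lower tercile, and the median CD9 antibody count was 547 and 755. Against the same background (6.68% of genes higher, 13.5% lower), 1 of 17 targets of the antioxidant factor NRF2 was higher, Prdx1 at 1.58-fold, and none lower (median 0.92). Of 18 immediate-early and heat-shock genes, 1 was higher, Atf3 at 1.53-fold, and 5 were lower, namely Fosb (0.46), Jun (0.53), Hspa1a (0.56), Hspa1b (0.56) and Dnajb1 (0.62).

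Interferon beta itself was transcribed by a small fraction of macrophages, and these were rich in ISGs. Ifnb1 had 1012 UMIs in 166 of 1708 macrophages (9.72%, 8.36 to 11.2%), and 12 cells held 50% of them, with up to 117 in 1 cell. In the 529 cells outside the gate, which were shallower (median 7412 RNA UMIs), 6 cells (1.13%) had 1 UMI each. Of the other 19 type I and III interferon genes in the table, only Ifnk (6 UMIs) and Ifnab (1 UMI) were detected. Interferon gamma (Ifng) had 32 UMIs in 13 NK cell-like cells, 22 in 4 T cell-like cells and 1 in macrophages.

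In macrophages with an Ifnb1 UMI the summed ISGs had a median of 21455 CPM, against 2975 CPM in those without, and quartiles of 12494 and 31650 against 1496 and 7135. The summed levels were 22362 and 6328 CPM, a ratio of 3.53 (3.51 to 3.56), at median RNA totals of 23832 and 20736.5 UMIs. Of the 166 cells, 158 lay above the median of all macrophages. Of the 35 ISGs, all but Bst2 (1.14-fold) were at least 1.5-fold higher, where 5.52% of 9956 genes were called higher and 19.5% lower. Ifit1 was 7.01-fold (6.75 to 7.28), Ifih1 5.77-fold, Rsad2 5.67-fold and Isg15 5.53-fold higher, while Stat2 was 1.68-fold and Gbp3 1.78-fold higher.

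The reverse did not hold cell by cell. Of the 570 macrophages in the upper tercile of the summed ISGs, 425 had no Ifnb1 UMI, and 145 had 984 UMIs between them. In the lower tercile 5 cells had 5 UMIs. The share with Ifnb1 was 5.88% in decile 7, 12.9% in decile 8, 24.7% in decile 9 and 43.5% in decile 10. A count of 0 in a cell does not show that the cell lacked the transcript.

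Macrophages were also clustered with the ISGs, the pathway lists, Cd9 and Mrc1 left out (172 genes), so that the ISGs did not define the clusters. Leading genes of a cluster were read afterwards over all genes. Genes that vary with the ISGs and are on no list stayed in, so the clusters are not independent of them, and the pairs of clusters compared here were chosen after their values were seen. The summed ISGs stood at 18244 CPM in 298 macrophages of a cluster led by Gbp5 and Ccl5 and at 14940 CPM in 146 of a cluster led by Ifnb1 and Cxcl1. The median cells had 17267 and 10054 CPM. A cluster of 417 macrophages led by the heat-shock genes Hspa1a and Hspa1b stood at 5886 CPM, and 4 further clusters, led by Slc40a1, Tgfbr1, Pltp and Mmp13, at 3316 to 3747 CPM. A cluster of 55 macrophages with a low median of 5983 RNA UMIs, led by AY036118 and with mitochondrial genes among its leading genes, stood at 6380 CPM, and 27 macrophages led by Tll2 at 5652 CPM.

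Summed over its cells, the heat-shock-led cluster carried only part of the set. Its median cell had 3033 CPM of the summed ISGs, against 5886 CPM over all its cells. Ifnb1 stood at 29.9 CPM in this cluster, 25.6 in the Gbp5-led, 142 in the Ifnb1-led and 0.496 CPM in the Tgfbr1-led cluster. Whether the partial set was a trait of all its cells was not tested. Set against the 215 macrophages of the Tgfbr1-led cluster, 7 of 35 ISGs were at least 1.5-fold higher and 8 at least 1.5-fold lower, where 12.6% and 34.3% of 7827 genes were called higher and lower. Isg15 (5.94-fold, 5.38 to 6.57), Ifit1 (5.91-fold), Ifih1 (5.81-fold), Oasl1 (5.80-fold) and Rsad2 (5.37-fold) were higher, as were Isg20 (2.85-fold) and Ifit3b (1.69-fold). In contrast Ifit3 stood at 0.95 and Ifit2 at 1.26, and Gbp7 (0.35), Ifi209 (0.42), Gbp2 (0.54) and Gbp3 (0.56) were lower. In the Ifnb1-led and the Gbp5-led cluster, set against the same cells, 34 of 35 ISGs were higher and none lower, with median ratios of 2.96 and 4.17 (8.8% and 9.23% of genes called higher, 32.5% and 20.8% lower). These 3 comparisons share the Tgfbr1-led cells. When the ISGs were kept in the clustering, 1 cluster of 286 macrophages held 53.3% of all ISG UMIs, which is a result of the clustering and no finding.

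The antibody to CD9, a tetraspanin of the cell surface, was read through its tag, TAGCAGTCACTCCTA, and compared at matched RNA depth. Between the highest and the lowest tercile of CD9 antibody UMIs within deciles of RNA total (570 macrophages each, mean antibody counts 4306.5 and 141.9), no ISG differed 1.5-fold either way. Of 9161 genes, 5.67% were called higher and 2.7% lower, so a count of 0 higher and 0 lower of 35 lies close to the background. Cd9 mRNA followed the antibody, at 384 against 55.5 CPM (6.92-fold, 6.39 to 7.51).

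Most ISGs were slightly lower in the CD9-high macrophages. Of 35, 28 had a ratio below 1 (21 with the whole interval below) and 7 above, with a median of 0.91 where the median gene was at 1.06 and 38.2% of genes lay below 1. Phf11d, a PHD-finger protein, had the lowest ratio (0.68, 0.61 to 0.75), followed by Isg15 (0.76, 0.74 to 0.78), Xaf1 (0.79) and Bst2 (0.81). Gbp7 (1.18, 1.03 to 1.36) and Cmpk2 (1.14, 1.05 to 1.23) were the 2 whose interval lay above 1, and Ifit1 stood at 1.04 (0.996 to 1.09). The summed ISGs were 7742 against 8705 CPM, a ratio of 0.89 (0.88 to 0.90), and 22.1% against 26.5% of cells gave at least 1% of their RNA to them. The per-cell ranges overlapped almost wholly, with quartiles of 1522 and 8503 CPM in CD9-high and 1831 and 10832 CPM in CD9-low cells. With the upper and lower 20% of cells, Ifi44 was called higher (1.75-fold) and Isg15 (0.60) and Phf11d (0.65) lower.

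Ranked by Cd9 mRNA instead, the ISGs were lower in Cd9-high macrophages by a larger margin. The summed ISGs were 6866 against 8992 CPM, a ratio of 0.76 (0.76 to 0.77), and 34 of 35 ISGs had a ratio below 1, with a median of 0.75 where the median gene was at 1.03 and 43.3% of genes lay below 1. At least 1.5-fold lower were 5 of 35, namely Ifit2 (0.58, 0.56 to 0.60), Ifi213 (0.61), Phf11d (0.65), Ifit3 (0.66) and Herc6 (0.66), and none was higher. Over 9088 genes 2.9% were called lower and 3.91% higher. Cmpk2 was the 1 above 1, at 1.08 (0.99 to 1.18). By spread, the confined ISGs together were lowest, at 0.68 (0.66 to 0.69). The broad stood at 0.79 (0.77 to 0.81) and those between at 0.78 (0.78 to 0.79), with overlapping intervals. By antibody the broad ISGs were lowest instead, at 0.85 (0.83 to 0.86). The confined stood at 0.91 (0.89 to 0.93) and those between at 0.89 (0.88 to 0.90), again with overlapping intervals.

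The mRNA groups rest on few UMIs at their lower end. Cd9 had no UMI in 601 macrophages (35.2%), and 484 of the 570 cells in the lower tercile were among them. Decile by decile the sum did not fall evenly, with 9552 CPM in decile 1, 7828 in decile 3, 9956 in decile 5 and 5618 in decile 10. By antibody deciles it moved between 6613 and 9173 CPM without a steady order. Per cell, Spearman's correlation with the summed ISGs was -0.055 for the antibody and -0.087 for Cd9 mRNA, while antibody and Cd9 mRNA correlated at 0.70. Ifnb1 had 304 UMIs in 54 CD9-high and 317 in 58 CD9-low cells by antibody (0.90, 0.77 to 1.06). By Cd9 mRNA it had 182 UMIs in 52 Cd9-high and 414 in 54 Cd9-low cells (0.43, 0.36 to 0.51), a gene in which 12 macrophages held 50% of all UMIs.

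**Figure D4:**
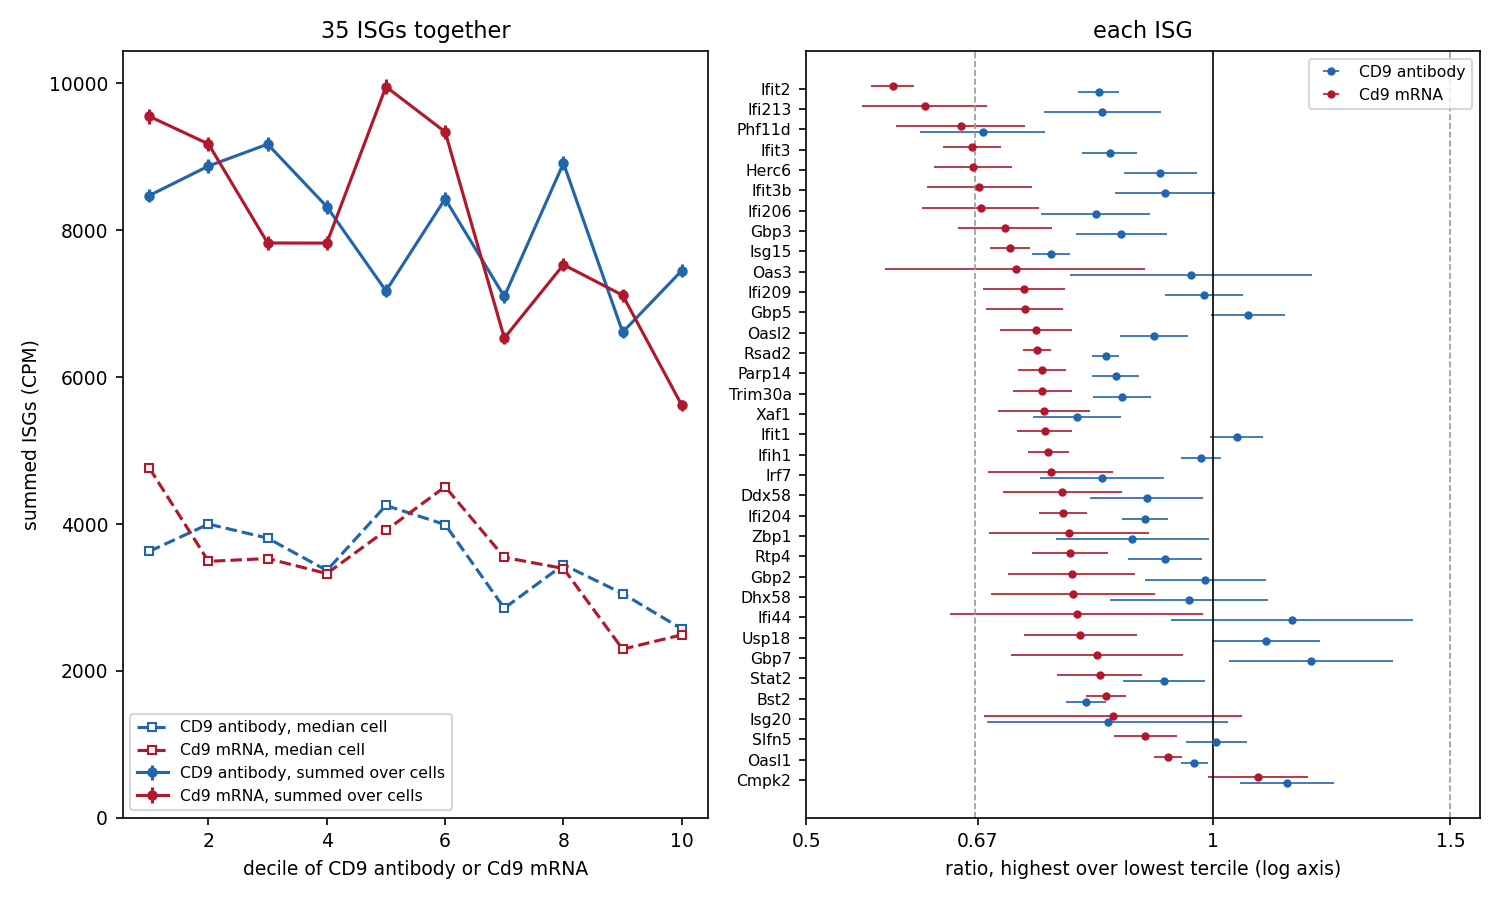
Left, the 35 ISGs summed over cells (filled points, CPM, with 95% counting intervals) and in the median cell (open squares) by decile of CD9 antibody (blue) or Cd9 mRNA (red) within deciles of RNA total. Right, ratio of each ISG between the highest and the lowest tercile with its 95% counting interval on a log axis, with dashed lines at 1.5-fold; 34 of 35 ISGs lie below 1 by Cd9 mRNA and 28 by antibody.

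Cells outside the gate were named by clusters and marker genes. The T cell-like class (70 cells) passed 9 of 10 T cell markers, the NK cell-like class (41 cells) 9 of 10 NK markers and also 4 T cell markers, the B cell-like class (29 cells) 10 of 10 B cell markers. The dendritic-like class (50 cells) passed 5 of 6 cDC1 and 6 of 8 cDC2 markers (the types of conventional dendritic cell) as well as 4 of 8 migratory and 4 of 9 cycling markers, so it is a mixture. None of 6 plasmacytoid markers passed there, so the interferon-producing plasmacytoid type was not seen as a class. C1q genes stood in these classes at 0.81 to 1.64% of their macrophage level.

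Lymphocytes as a group carried less of the ISGs than macrophages, but the classes differed. The summed ISGs were 3875 CPM (3733 to 4022) in T cell-like, 5145 CPM (4922 to 5376) in NK cell-like, 772 CPM (678 to 876) in B cell-like and 4836 CPM (4721 to 4954) in dendritic-like cells, against 8051 CPM in macrophages. The median cells had 1339, 1647, 518, 1589 and 3428 CPM. Macrophages stood 2.28-fold (2.22 to 2.34) above all 140 lymphocytes, 2.08-fold above T cell-like, 1.56-fold above NK cell-like, 10.4-fold (9.19 to 11.9) above B cell-like and 1.66-fold above dendritic-like cells. Median RNA totals were 8918.5, 9523, 9763 and 24259.5 UMIs in the 4 classes, so lymphocytes were read at a lower depth.

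These sums depend on single cells. The richest cell held 25.6% of the T cell-like, 19.5% of the NK cell-like and 10.5% of the dendritic-like ISG UMIs. Without it the sums were 3032, 4275 and 4384 CPM. At least 1% of RNA was given to the ISGs by 5 of 70 T cell-like cells, which held 55.2% of that class's ISG UMIs, by 4 of 41 NK cell-like cells (48.5%), by 7 of 50 dendritic-like cells (58.9%) and by no B cell-like cell. C1q genes stood at 532 CPM in those 5 T cell-like cells and at 68.2 CPM in the other 65, but at 21.9 CPM in the 4 NK cell-like cells against 79.0 CPM in the other 37. The part of macrophage RNA in the T cell-like values was not tested.

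Gene by gene, single ISGs differed between macrophages and lymphocytes in both directions. Of 35 ISGs, 17 were at least 1.5-fold higher and 9 at least 1.5-fold lower in macrophages than in lymphocytes, where 26.1% and 48.6% of 13332 genes were called. The share of ISGs called lower was thus smaller than that of all genes. The median ISG was at 1.33 and the median gene at 0.69. Higher in macrophages than in both T cell-like and NK cell-like cells were, among others, Oasl1 (33.5-fold and 8.67-fold), Ifi204 (15.9-fold and 6.43-fold), Bst2 (8.47-fold and 5.71-fold), Ifih1 (7.03-fold and 5.12-fold), Rsad2 (6.29-fold and 5.52-fold) and Ifit2 (6.24-fold and 33.1-fold). Ifit2 rested on 6 UMIs in NK cell-like cells (33.1-fold, 15.2 to 90.2). In T cell-like cells 1 cell held 77.8% of 18 Ifi204 UMIs and 70.9% of 127 Rsad2 UMIs. Without the T cell-like cell richest in ISGs, Ifi204 rested on 4 UMIs (67.97-fold, 26.5 to 249) and Rsad2 was at 20.5-fold (14.9 to 29.2). Without the richest NK cell-like cell, Ifi204 was at 12.4-fold and Rsad2 at 7.59-fold.

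Higher in both T cell-like and NK cell-like cells than in macrophages were, among others, Gbp7, Isg20, Ifi206, Gbp2 and Ddx58. In B cell-like cells, on few UMIs, Ifi206 (38.1 CPM), Gbp2 (15.9 CPM) and Ddx58 (47.7 CPM) were instead below macrophages. Gbp7 (41.3 CPM) and Isg20 (19.1 CPM) were above macrophages there, by less than 1.5-fold. Gbp7 stood at 124 CPM (99.5 to 152) in T cell-like and 199 CPM (157 to 248) in NK cell-like cells, against 31.5 CPM in macrophages. The exonuclease gene Isg20 was at 36.2, 67.1 and 14.8 CPM in the same order, and Ifi206 at 192, 222 and 68.6 CPM. Ddx58 (RIG-I) was at 110, 217 and 66.1 CPM and so lower in macrophages than in T cell-like or NK cell-like cells. Its relative Ifih1 was highest in macrophages, at 75.1, 103 and 529 CPM. Endocrine-like cells had 78.2 CPM of Isg20 and 52.0 CPM of Ddx58, against 3.75 and 8.86 CPM in the macrophages poor in the other ISGs. The part of free RNA in the macrophage values of these 2 genes, and in their differences from other classes, was not tested. Ifit1 did not follow Ifit2, at 313 CPM (274 to 357) in T cell-like and 287 CPM in macrophages. Macrophages over T cell-like cells gave a ratio of 0.92 (0.80 to 1.05). Only 18 T cell-like cells had an Ifit1 UMI, and 1 cell held 29.3% of the 225 UMIs, so the T cell-like level leans on that cell.

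Taken class by class, 17 ISGs were higher and 10 lower in macrophages than in T cell-like cells (background 30.3% and 46.2%) and 12 were higher and 14 lower than in NK cell-like cells (33.8% and 43.8%). The counts against NK cell-like cells lie close to the background. The median ratios were 1.37 and 1.04. Against B cell-like cells 30 were higher and 0 lower (37.8% and 40.3%), with a median of 15.2, or 7.77 when the 5 ISGs without a UMI in those cells were set to the floor of 3 counts per class. Against that floor Oasl2 was at least 18.9-fold and Rtp4 at least 16.1-fold higher in macrophages, and the lower ends of their exact 95% intervals were 15.3 and 13.1. The 5 with a ratio under 1.5 were Ifi209 (1.12), Zbp1 (1.02), Ddx58 (1.39), Isg20 (0.78) and Gbp7 (0.76), and Ifi209 at 124 CPM was close to its macrophage level of 138 CPM.

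With all cells, none of the 4 Ifit genes differed 1.5-fold between macrophages and dendritic-like cells. Ifit1 stood at 1.22, Ifit2 at 1.16, Ifit3 at 1.43 and Ifit3b at 1.16 (macrophages over dendritic-like). For these 4 genes 1 dendritic-like cell held 18.8 to 35.6% of the class's UMIs. Without the dendritic-like cell richest in ISGs the ratios were 1.33, 1.38, 1.83 (1.59 to 2.11) and 1.36, so Ifit3 then passed 1.5-fold. Of 35 ISGs, 14 were higher and 4 lower in macrophages (27.7% and 29.2% of 13145 genes called), with a median of 1.22 where the median gene was at 0.92. Ifih1 (4.84-fold), Oasl1 (3.76-fold), Gbp3 (3.47-fold), Bst2 (3.40-fold) and Rsad2 (3.04-fold) were the furthest above. Ifi44 counted among the 14 at 1.70-fold with an interval of 0.99 to 3.21. Isg20 (0.42), Slfn5 (0.52), Usp18 (0.63) and Ddx58 (0.64) were the 4 lower in macrophages, and Slfn5 stood at 428 CPM in dendritic-like cells against 221 CPM. Without the richest dendritic-like cell 16 were higher and only Isg20 (0.53) and Slfn5 (0.53) lower.

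Receptor genes were present in each of these classes. Ifnar1 stood at 133 CPM in macrophages, 149 in T cell-like, 191 in NK cell-like, 76.3 in B cell-like and 198 in dendritic-like cells, and Ifnar2 at 319, 166, 119, 66.7 and 228 CPM in the same order. The B cell-like cells, lowest in ISGs, were lowest of these 5 in both receptor genes, on 24 and 21 UMIs. Macrophages, highest of these 5 in ISGs, were highest in Ifnar2, but in Ifnar1 they exceeded only the B cell-like cells. A relation of receptor to ISG levels was not tested.

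**Figure D5:**
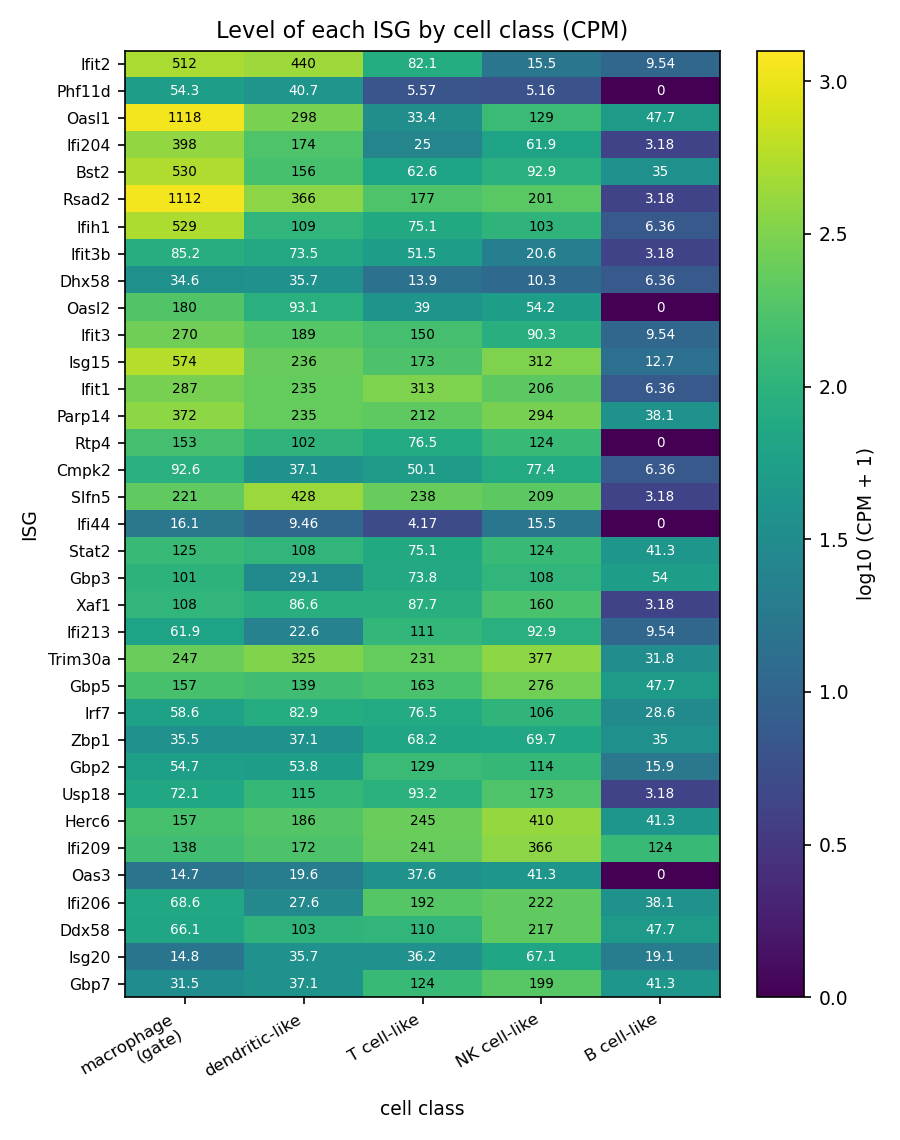
Level (CPM, printed and coloured by log10 of CPM with 1 added) of each ISG in gated macrophages and in the dendritic-like and 3 lymphocyte classes, with rows ordered by the ratio of macrophages over NK cell-like cells. Oasl1, Ifi204, Bst2 and Rsad2 near the top are highest in macrophages, Gbp7, Isg20, Ddx58 and Ifi206 near the bottom are highest in NK cell-like cells, and the B cell-like column is lowest for most ISGs, with Ifi209 at 124 CPM its highest value.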

How the data were processed

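Counts of UMIs per gene or antibody tag and cell were deposited by the authors, and the file headers name Cell Ranger 8.0.1, with mm10 per the submitters' processing notes. The rule for keeping barcodes: not given in the sources used here. The members and gene lists were chosen with earlier results of these data known. Of several gene IDs with 1 symbol, the ID with more UMIs was kept (40 symbols). Sums over cells were scaled to CPM, with exact Poisson, conditional binomial (ratios) and Clopper-Pearson (shares) 95% intervals, using scipy 1.17.1. Reads shared between near-identical genes (Ifit3 with Ifit3b, and the Ifi200, Gbp and Oas families) cannot be split further here. The 2215 cells that had 200 genes or more and no more than 10% mitochondrial UMIs were clustered with scanpy 1.11.5 (2000 variable genes, 30 components, 15 neighbours, Leiden resolution 1, and 2 to part T from NK cells). A marker passed with UMIs in 25% of a cluster's cells and 2 times the CPM of the other cells (10 added); a name needed 0.5 of the list's markers and 3 markers, thresholds set after the cells were seen. Gated macrophages were removed from all other classes. Scrublet's threshold marked 6 cells (0.271%) and was not used, so doublets stayed in, and the highest 1.79% of scores were removed as an alternative. Ratios were computed for genes with at least 100 UMIs in both groups together (20 between cell classes). The computation was tested on simulated counts. Named genes were all members, up to 4 genes of each pathway list each way (largest by the interval end closest to 1), any ligand or receptor, Irf9 and Irf1, and the 12 highest and 12 lowest other genes; the remaining pathway genes were chosen after their values were seen. A gene that this rule names is not reported here. Cells are not replicates, so no p-value was computed.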

Additional observations from a re-analysis of the deposited data

How the results depend on the processing

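Of 87 alternatives, 58 stayed within 1.5 times a count or inside a value's counting interval and 29 moved. By the rule used, only the single-gene ratios could be labelled as reversed in direction, and none of them was. No paired analysis was possible because there is 1 sample. The summed level in macrophages was 8086 CPM with at least 10000 RNA UMIs, 8003 CPM with at least 4000 CPM of C1q genes, 8142 CPM without the highest doublet scores, 7766 CPM as a mean over cells and 7620 CPM without the richest 1% of macrophages. The ratio of summed ISGs by CD9 antibody was 0.88 at 10000 UMIs, 0.91 at the higher C1q limit, 0.92 for upper and lower 50%, 0.82 for upper and lower 20% and 0.94 by raw antibody ranking, and by Cd9 mRNA it was 0.78, 0.79 and, without the highest doublet scores, 0.76. Broad ISGs numbered 10 at a limit of 0.7 and 8 in cells thinned to 5000 UMIs, and confined ISGs 16 at a limit of 0.6. By CD9 antibody, 1 ISG was higher with 20% groups and 1 by raw ranking (Ifi44 in both), and 2 were lower with 20% groups. At 2-fold, 4 ISGs were lower in macrophages than in lymphocytes and 1 than in dendritic-like cells. With classes from marker gates per cell (16 dendritic-like cells) 8 were lower in macrophages than in dendritic-like cells, and 2 without the richest dendritic-like cell, an alternative chosen after seeing the data, as were the single-gene ratios without the richest T cell-like, NK cell-like or dendritic-like cell. Thus the count of ISGs lower than in dendritic-like cells (4) was the least stable. Depth limits what a count of 0 in a cell can show.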

Other observations

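The CD206 antibody, which binds the mannose receptor encoded by Mrc1, gave a flatter picture than CD9. Between its highest and lowest tercile of macrophages (570 each, mean antibody counts 61.5 and 3.03, ranked within deciles of RNA total), no ISG differed 1.5-fold, and the ratios ran from 0.81 to 1.21 with a median of 1.003. The summed ISGs were 8250 against 8039 CPM, a ratio of 1.03 (1.02 to 1.04), where 2.48% of all genes were called higher and 1.62% lower.

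Further groups of cells differed widely in the summed ISGs. The 43 endocrine-like cells had 377 CPM of summed ISGs (351 to 404), yet Isg20 stood at 78.2 CPM there (66.6 to 91.2), against 14.8 CPM in macrophages, and Ddx58 at 52.0 CPM against 66.1. The 22 endothelial-like cells had 8643 CPM (8345 to 8950), of which 1 cell held 26.5%, with a median cell of 1166 CPM. In that class Rsad2 stood at 2585 CPM and Isg15 at 1216 CPM, and Ifi209, Ifi213 and Oas3 had no UMI. The 227 cells with fewer than 5000 RNA UMIs (median 1522) had 4802 CPM of summed ISGs. A cluster of 8 cells led by Il5, Calca and Gata3 had 1420 CPM. It passed 3 of 10 T cell markers, too few for a name, so it was not counted among the lymphocytes.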
